A study of Mus musculus with 40 samples.

Results

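The genes of the Fc receptors, which bind the constant part of antibodies, were examined in the hearts of mice whose cardiomyocytes were made to express Il11. The list held 7 genes, *Fcgr1*, *Fcgr2b*, *Fcgr3*, *Fcgr4*, *Fcer1g*, *Fcgrt* and *Fcrls*, and its members were taken by gene name from the expression table of each sex. All 7 were listed among the 17646 genes of the male table and the 17223 genes of the female table, and all 7 passed the filter on low values in both. PolyA RNA was sequenced from tissue labelled as heart (left ventricle in the study's text), with 1 library per mouse.

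Control mice carried the α-MHC-MerCreMer transgene alone and received tamoxifen. Their labels read baseline and give no time after tamoxifen. The controls of a sex were compared with all 3 weeks, so time after the drug is not matched by label. CM-Il11-Tg mice were heterozygous for that transgene and for *Rosa26-Il11*. They were examined 1, 3 and 6 weeks after tamoxifen, or with no tamoxifen (uninduced). Every group therefore carried the Cre transgene, which the α-MHC promoter drives in cardiomyocytes, and the uninduced mice differed from controls in both the second transgene and the drug. The mice were of a mixed C57BL/6N and C57BL/6J background and the labels give no ages. In the study's text tamoxifen was started at 1 fixed age, so age rose with the weeks after it. Age and time after tamoxifen cannot be told apart between the weeks. Each group held 4 libraries, except male control and male 6-week hearts with 3 each. The labels of 2 further male libraries contradict each other (control in one field and 6 weeks in another), so those entered no comparison, and 38 of the 40 libraries were used.

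Libraries held between 16663513 and 65333832 reads on genes in males and between 19147947 and 30929192 in females. The mean correlation of a library with the others of its group lay between 0.968 and 0.993. CPM values are read counts that the authors scaled by library size, in males and females separately, and comparisons were therefore made within a sex. *Il11*, the induced gene, was at 0.0867 ± 0.0769 CPM in male controls (mean ± SD, as for all CPM values) and 0.0886 ± 0.0799 in female controls. Without tamoxifen it was already at 19.6 ± 2.89 and 26.8 ± 15.1 CPM, and after tamoxifen its group means lay between 421 and 570.3.

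Receptors for IgG on macrophages and other leukocytes are either activating or inhibitory. The activating receptors *Fcgr1*, *Fcgr3* and *Fcgr4* signal through the common γ chain, encoded by *Fcer1g*, whose cytoplasmic tail carries an immunoreceptor tyrosine-based activation motif (ITAM) that recruits the kinase Syk. *Fcgr2b* is the inhibitory receptor: its tail carries an inhibitory motif (ITIM) that recruits phosphatases such as the product of *Inpp5d*. *Fcgrt* encodes the heavy chain of the neonatal Fc receptor, which pairs with *B2m*, binds IgG and albumin inside cells and returns them to the circulation. *Fcrls* is a scavenger receptor-like relative of the family found on tissue macrophages.

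The stretches of coding sequence that set the activating chain apart from the inhibitory receptor are shown because ratios of activating to inhibitory receptors are described below. Both were read from GRCm39 with the GENCODE M39 annotation, 5′ to 3′ along the gene, and capitals mark the codons for tyrosine and for the hydrophobic residues that define each motif. The ITAM of *Fcer1g* starts at codon 65 of 85 and spans an intron (chr1:171057458-171057641, minus strand). The ITIM of *Fcgr2b* starts at codon 270 of 292 (chr1:170788640-170788657, minus strand). Among the 7 genes the ITAM pattern was found in *Fcer1g* only, whereas the shorter ITIM pattern was also met in *Fcgr1*, *Fcgr4*, *Fcer1g* and *Fcgrt*, where it is a match of letters and not a known site.
Fcer1g ITAM: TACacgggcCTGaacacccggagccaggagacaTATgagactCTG
Fcgr2b ITIM: ATCaccTACtcacttCTC

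*Fcgr2b*, *Fcgr3* and *Fcgr4* are neighbours on chromosome 1, and *Fcgr2b* and *Fcgr3* are near-identical over part of their ligand-binding ectodomain. The longest run shared by any pair of the 7 coding sequences was 129 bases, between *Fcgr2b* (coding bases 278 to 406, in the span chr1:170794243-170795650, GRCm39, minus strand) and *Fcgr3* (coding bases 263 to 391, in the span chr1:170881736-170885361, minus strand). It crosses an intron in both genes. No other pair of members shared a coding run of over 15 bases. Along the whole canonical transcript of *Fcgr2b*, 3 stretches of 129, 113 and 71 bases were identical in *Fcgr3*, the first being the run above. They hold 136 windows of 60 bases, the length of 1 read, which is 4.07% of the 3344 windows of *Fcgr2b* and 9.15% of the 1486 windows of *Fcgr3*. A read that falls wholly within a shared stretch cannot be assigned by its own sequence. The study's reads were paired, so a mate outside the stretch can place the pair. The shares of windows therefore do not measure how uncertain the counts of these 2 genes are.
Fcgr2b and Fcgr3 shared run: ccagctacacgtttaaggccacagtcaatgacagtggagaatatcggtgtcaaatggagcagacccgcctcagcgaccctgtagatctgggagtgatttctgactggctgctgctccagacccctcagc

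Against control, 6 of the 7 genes rose at 1 week in males, 5 at 3 weeks and 6 at 6 weeks (limma, adjusted p under 0.05). In females 6 rose at 1 week, 6 at 3 weeks and all 7 at 6 weeks, and every log2 fold change of a member was above 0. Across all genes tested, the share called higher was 18.9%, 13.2% and 16.2% in males and 15.3%, 16.8% and 21.7% in females, at 1, 3 and 6 weeks. The median log2 fold change of the 7 genes was 0.99, 1.52 and 1.61 in males and 1.93, 1.80 and 2.15 in females, whereas the median over all genes lay within 0.03 of 0 in every comparison. In whole tissue, more cells of a type and more RNA per cell cannot be told apart. The 3 weeks share their control libraries.

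**Figure D1:**
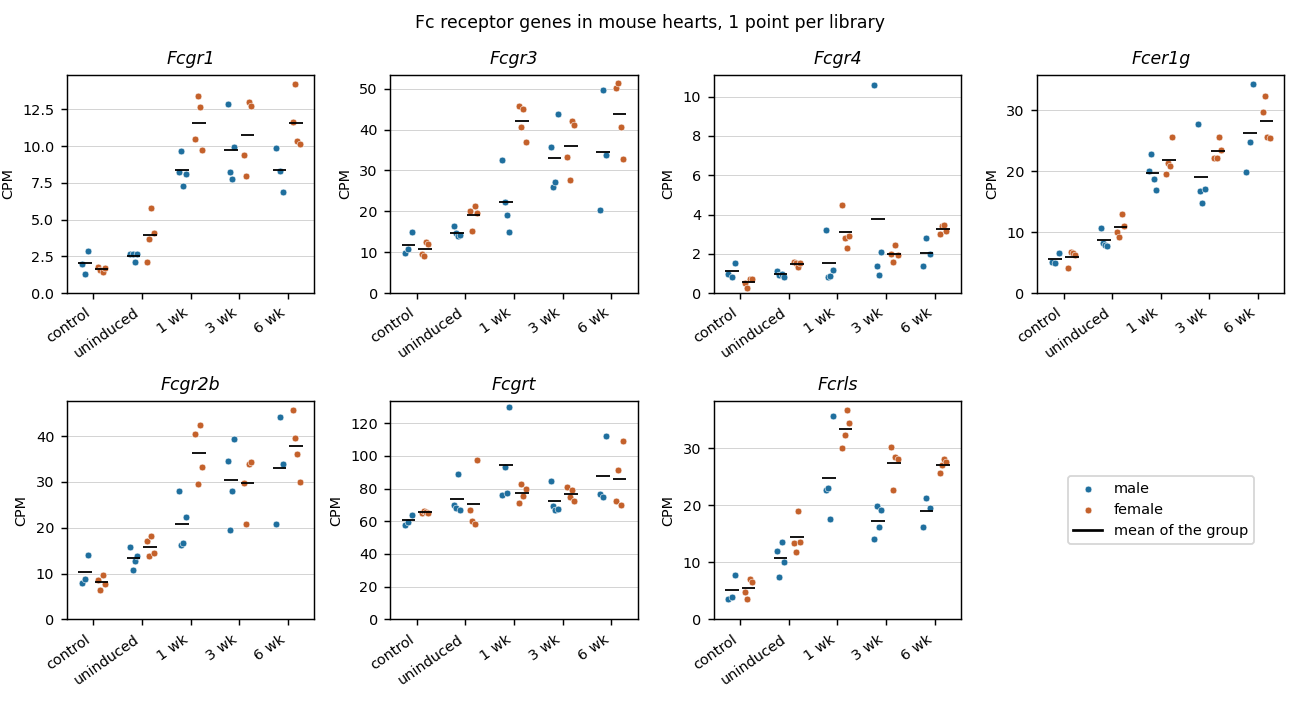
CPM of the 7 Fc receptor genes in each library (points; blue male, orange female) by group, with the group mean as a black bar. *Fcer1g*, *Fcgr1* and *Fcrls* sit above every control library of their sex at 1, 3 and 6 weeks, and 1 male 3-week library reaches 10.6 CPM of *Fcgr4*.

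*Fcer1g* (ENSMUSG00000058715, chr1:171057141-171062219, minus strand), the signalling chain that the activating receptors share, was at 4.92, 5.17 and 6.63 CPM in male controls. It was at 17.003, 18.8, 20.1 and 22.9 CPM at 1 week, 14.7, 16.7, 17.04 and 27.7 at 3 weeks and 19.9, 24.8 and 34.4 at 6 weeks. No induced male library overlapped the controls, and the lowest was more than double the highest control. Female controls held 4.13, 6.32, 6.50 and 6.68 CPM, and female hearts 19.6, 20.9, 21.4 and 25.6 at 1 week, 22.1, 22.2, 23.6 and 25.7 at 3 weeks and 25.4, 25.7, 29.8 and 32.4 at 6 weeks. The difference in mean log2(CPM + 0.5), on which all log2 fold changes are given with their standard error, was 1.74 ± 0.20, 1.65 ± 0.20 and 2.12 ± 0.21 in males (limma adjusted p = 2.2e-06, 4.4e-06 and 4.1e-07). In females it was 1.82 ± 0.14, 1.92 ± 0.14 and 2.18 ± 0.14 (adjusted p = 2.8e-09, 8.8e-10 and 9.6e-11). The highest mean stood at 6 weeks in both sexes, but 6 weeks did not differ from 1 week (log2 difference 0.38 and 0.36, adjusted p = 0.358 and 0.259 in males and females).

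*Fcgr1* (ENSMUSG00000015947, chr3:96190225-96201338, minus strand, 6 exons), the high-affinity IgG receptor, had control values of 1.33, 1.99 and 2.88 CPM in males and 1.45, 1.60, 1.72 and 1.81 in females. Induced male libraries held 7.28, 8.13, 8.27 and 9.68 at 1 week, 7.79, 8.22, 9.94 and 12.9 at 3 weeks and 6.88, 8.33 and 9.88 at 6 weeks. Induced female libraries held 9.76, 10.5, 12.6 and 13.4, then 7.94, 9.37, 12.7 and 13.0, then 10.2, 10.3, 11.6 and 14.2 CPM. None of the induced libraries overlapped the controls, and the weeks overlapped one another. Log2 fold changes were 1.82 ± 0.20, 2.01 ± 0.20 and 1.82 ± 0.21 in males and 2.48 ± 0.20, 2.37 ± 0.20 and 2.49 ± 0.20 in females, with limma adjusted p between 5.4e-09 and 2.5e-06. The difference between 6 weeks and 1 week was within 0.01 of 0 in both sexes (adjusted p = 0.995 and 0.999).

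*Fcgr3* (ENSMUSG00000059498, chr1:170878738-170893549, minus strand, 5 exons), the low-affinity activating receptor, was at 9.71, 10.8 and 14.9 CPM in male controls. At 1 week male hearts held 14.9, 19.1, 22.3 and 32.5 CPM, at 3 weeks 25.9, 27.1, 35.7 and 43.8 and at 6 weeks 20.3, 33.7 and 49.6. The lowest 1-week library stood next to the highest control, and libraries of 1 group differed more than for *Fcer1g*. Female controls held 9.05, 9.47, 12.1 and 12.5 CPM, and female hearts 37.0, 40.7, 45.0 and 45.8 at 1 week, 27.7, 33.3, 41.1 and 42.1 at 3 weeks and 32.8, 40.7, 50.2 and 51.3 at 6 weeks. Female values were clear of the controls at each week. The log2 fold change was 0.85 ± 0.26 in males at 1 week (limma adjusted p = 0.0166), a call lost when control replicate 1, control replicate 3 or 1-week replicate 1 was left out (adjusted p = 0.0753, 0.0659 and 0.0571). It was 1.44 ± 0.26 at 3 weeks and 1.44 ± 0.28 at 6 weeks (adjusted p = 4.0e-04 and 6.5e-04), and 1.93 ± 0.16, 1.69 ± 0.16 and 1.96 ± 0.16 in females (adjusted p between 3.8e-09 and 4.4e-08).

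*Fcgr2b* (ENSMUSG00000026656, chr1:170786186-170804177, minus strand, 7 exons), the inhibitory receptor, held 8.02, 8.75 and 14.02 CPM in male controls, then 16.2, 16.8, 22.4 and 27.9 at 1 week, 19.5, 28.1, 34.7 and 39.4 at 3 weeks and 20.8, 33.95 and 44.2 at 6 weeks. Every induced male library lay above the controls, although the 3 weeks were spread widely. Female controls held 6.48, 7.70, 8.53 and 9.71 CPM, with 29.5, 33.2, 40.5 and 42.5 at 1 week, 20.8, 29.8, 33.96 and 34.3 at 3 weeks and 30.1, 36.1, 39.7 and 45.7 at 6 weeks. The log2 fold change was 0.99 ± 0.26, 1.52 ± 0.26 and 1.61 ± 0.28 in males (limma adjusted p = 0.00650, 2.5e-04 and 2.3e-04). In females it was 2.10 ± 0.17, 1.80 ± 0.17 and 2.15 ± 0.17 (adjusted p between 2.2e-09 and 4.1e-08). The inhibitory receptor, *Fcgr1*, *Fcgr3* and the signalling chain passed the test at every week in both sexes, as did *Fcrls*, described below.

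*Fcgr4* (ENSMUSG00000059089, chr1:170846466-170857330, plus strand, 5 exons), the other low- to intermediate-affinity activating receptor, was the least abundant member in CPM, with between 5 and 275 reads per library. Male controls held 0.795, 0.974 and 1.53 CPM, and male hearts 0.830, 0.864, 1.198 and 3.21 at 1 week, 0.920, 1.36, 2.098 and 10.6 at 3 weeks and 1.38, 1.98 and 2.82 at 6 weeks. In males every week overlapped the controls, and 1 library stood far above its group at 1 week and at 3 weeks. Female controls held 0.242, 0.517, 0.700 and 0.721 CPM, with 2.30, 2.83, 2.91 and 4.48 at 1 week, 1.60, 1.94, 1.97 and 2.46 at 3 weeks and 3.01, 3.14, 3.44 and 3.44 at 6 weeks, clear of the controls throughout. Female log2 fold changes were 1.79 ± 0.17, 1.27 ± 0.17 and 1.87 ± 0.17 (limma adjusted p = 1.1e-07, 9.1e-06 and 3.3e-08). Male values were 0.23 ± 0.48, 0.91 ± 0.48 and 0.67 ± 0.52 (adjusted p = 0.752, 0.204 and 0.363), and the 3-week value was 0.28 without replicate 1. A difference between the sexes was not tested, since the tables were scaled separately.

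*Fcrls* (ENSMUSG00000015852, chr3:87156616-87181827, minus strand, 8 exons) had control values of 3.64, 3.90 and 7.80 CPM in males and 3.58, 4.82, 6.49 and 7.004 in females. It was highest at 1 week, with 17.6, 22.7, 23.1 and 35.7 CPM in males and 30.0, 32.3, 34.4 and 36.6 in females. At 6 weeks it stood at 16.1, 19.5 and 21.3 and 25.6, 27.0, 27.6 and 28.1 CPM. All induced libraries were above the controls, and in both sexes the mean was lower at 3 and 6 weeks than at 1 week without a call between weeks. Log2 fold changes were 2.20 ± 0.25, 1.73 ± 0.25 and 1.86 ± 0.26 in males and 2.54 ± 0.16, 2.26 ± 0.16 and 2.25 ± 0.16 in females, with limma adjusted p between 2.4e-10 and 3.1e-05.

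*Fcgrt* (ENSMUSG00000003420, chr7:44742412-44756819, minus strand, 6 exons), the neonatal Fc receptor, moved least of the 7 in females at each week. Its controls held 58.0, 59.8 and 63.8 CPM in males and 65.4, 65.4, 65.6 and 66.0 in females. Male hearts held 76.1, 77.4, 93.2 and 130.1 at 1 week, 66.8, 67.5, 69.2 and 84.8 at 3 weeks and 74.9, 76.8 and 112 at 6 weeks, and female hearts 71.4, 75.4, 79.8 and 83.03, 72.4, 74.7, 79.4 and 81.2 and 69.7, 72.7, 91.4 and 109. Single libraries reached well above the rest of their group, but all induced libraries were above the controls of their sex. The log2 fold change passed the test in males at 1 week (0.60 ± 0.17, limma adjusted p = 0.0110) and 6 weeks (0.51 ± 0.18, adjusted p = 0.0440) and in females at 6 weeks (0.36 ± 0.14, adjusted p = 0.0422). Both 6-week calls were lost without replicate 4 of that group (log2 fold changes 0.32 and 0.24, adjusted p = 0.203 and 0.171) and without any 1 control, and the female call also without 6-week replicate 2 (adjusted p = 0.107). The male call was lost in a fit of the 2 groups alone too (adjusted p = 0.0792). The values that did not pass were 0.24 ± 0.17 in males at 3 weeks and 0.23 ± 0.14 and 0.23 ± 0.14 in females at 1 and 3 weeks (adjusted p = 0.354, 0.223 and 0.232).

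**Figure D2:**
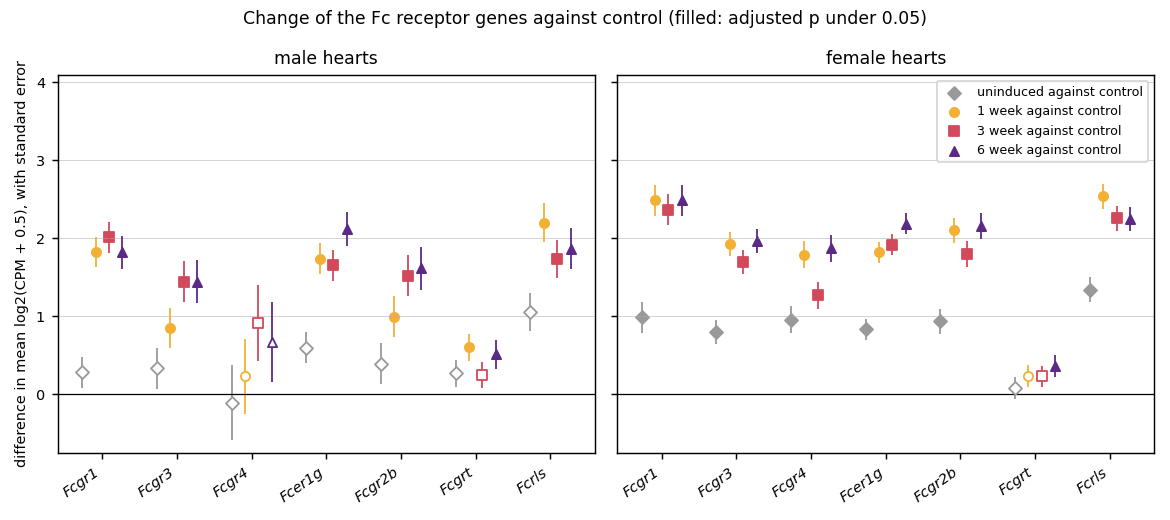
Difference in mean log2(CPM + 0.5) against control, with its standard error, for each gene in males (left) and females (right). Filled marks passed the limma test at an adjusted p under 0.05 and open marks did not: in uninduced hearts all 7 marks are open in males and 6 are filled in females.

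Counted by library, 6 of the 7 genes had every induced library of the 3 weeks above every control in males, *Fcgr4* being the exception, and all 7 did in females. Of all genes tested, 12.2% in males and 12.3% in females had that pattern. Between weeks no member passed the limma test in either sex, and edgeR and DESeq2 on the recovered reads called none higher either. Over all genes, limma at an adjusted p under 0.05 called 0.0118%, 0.13% and 0.0% higher in males and 0.165%, 0.891% and 0.0% in females. These shares are for 3 weeks against 1 week, 6 against 1 and 6 against 3. At an unadjusted limma p under 0.05, in either direction, males had 3, 2 and 1 members in the same order, and females had 1, 1 and 2. The share of all genes at that looser threshold is not given, so these counts have no background to be read against.

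Uninduced hearts, which expressed a low level of *Il11*, were compared with controls. In females 6 of the 7 genes, all but *Fcgrt*, were higher (limma, adjusted p under 0.05), against 2.41% of all genes. In males none passed, against 0.561% of all genes, and none was called by edgeR and 1, *Fcrls*, by DESeq2. At an unadjusted limma p under 0.05 there were 2 male members (*Fcer1g* and *Fcrls*), a threshold at which the share of all genes is not given. Female log2 fold changes were 1.34 ± 0.16 for *Fcrls*, 0.98 ± 0.20 for *Fcgr1*, 0.96 ± 0.17 for *Fcgr4*, 0.93 ± 0.17 for *Fcgr2b*, 0.83 ± 0.14 for *Fcer1g*, 0.79 ± 0.16 for *Fcgr3* and 0.08 ± 0.14 for *Fcgrt*. Adjusted p for the 6 lay between 3.8e-05 and 0.00755. The call of *Fcgr1* was lost in a fit of these 2 groups alone (adjusted p = 0.0829).

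In uninduced females *Fcrls* was at 11.7, 13.3, 13.6 and 19.04 CPM, *Fcer1g* at 9.17, 10.1, 11.05 and 12.9 and *Fcgr4* at 1.32, 1.54, 1.54 and 1.57. *Fcgr2b* was at 13.8, 14.4, 17.03 and 18.2 CPM, *Fcgr3* at 15.1, 19.6, 20.1 and 21.3 and *Fcgr1* at 2.14, 3.70, 4.09 and 5.82. In males, 2 members (*Fcer1g* and *Fcgrt*) had every uninduced library above every control, against 8.16% of all genes. In females, for each of the 6 genes named every uninduced female library was above every female control, a pattern that 5.13% of all genes showed, and the values lay between those of controls and of induced hearts. In uninduced males *Fcrls* was at 7.44, 10.03, 12.02 and 13.6 CPM (log2 fold change 1.05 ± 0.25, limma adjusted p = 0.0613) and *Fcer1g* at 7.75, 7.97, 8.30 and 10.7 (0.60 ± 0.20, adjusted p = 0.252). *Fcrls* passed in males when control replicate 4 was left out (1.37, adjusted p = 0.00628) or uninduced replicate 2 (1.21, adjusted p = 0.0326). The other male log2 fold changes lay between -0.11 (*Fcgr4*) and 0.39 (*Fcgr2b*). Transgene and tamoxifen cannot be told apart in this comparison.

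Measured against the uninduced hearts instead, 3, 5 and 5 of the 7 genes were higher at 1, 3 and 6 weeks in males (12.1%, 10.6% and 13.0% of all genes) and 6, 5 and 6 in females (8.32%, 10.6% and 13.7%), by the same limma test. *Fcgr1* had the largest of these log2 differences in every week and both sexes, from 1.38 in females at 3 weeks to 1.73 in males at 3 weeks. *Fcgr2b* and *Fcgr3* in males at 1 week did not pass (0.61 and 0.52, adjusted p = 0.0897 and 0.143) and did at 3 weeks (1.13 and 1.11, adjusted p = 0.00286 and 0.00311). *Fcrls* in males was 0.68 at 3 weeks and 0.81 at 6 weeks (adjusted p = 0.0472 and 0.0240), calls that were lost at 3 weeks under edgeR (adjusted p = 0.0549) and, at either time, without single libraries: uninduced replicates 1, 2 and 4 and replicates 2, 3 and 4 at 3 weeks, and uninduced replicates 2 and 4 and replicates 3 and 4 at 6 weeks. *Fcgr4* in males at 3 weeks passed under edgeR and DESeq2 (log2 fold change 1.96 in both, adjusted p = 0.0347 and 0.0228) but not under limma (1.02, adjusted p = 0.135). *Fcgr4* also passed there without 3-week replicate 3 (1.37, adjusted p = 0.0483). *Fcgrt* passed at no week in either sex, except in females at 6 weeks when uninduced replicate 4 was left out (0.45, adjusted p = 0.00802).

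Divided by the length of the gene's exons, the level in control hearts was highest for *Fcgrt*, at 12.3 ± 0.605 CPM per kb in males and 13.3 ± 0.0627 in females. *Fcer1g* followed at 4.81 ± 0.794 and 5.10 ± 1.03, then *Fcgr3* at 3.81 ± 0.883 and 3.48 ± 0.567. The order from the neonatal receptor through the signalling chain to the ligand-binding receptors was the same in both sexes, although the ranges of *Fcer1g* and *Fcgr3* overlapped. *Fcgr2b* (1.75 ± 0.559 and 1.38 ± 0.232) and *Fcrls* (1.19 ± 0.544 and 1.28 ± 0.366) also overlapped, and *Fcgr1* and *Fcgr4* were lowest. At 6 weeks the highest mean was that of *Fcer1g*, at 22.7 ± 6.36 CPM per kb in males and 24.4 ± 2.91 in females. *Fcgrt* was then at 17.9 ± 4.27 and 17.4 ± 3.73, with ranges that overlapped those of *Fcer1g*. These levels per kb rest on the union of annotated exons and were not tested between genes.

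The ratio of each activating receptor to *Fcgr2b* within a library was compared with control by an exact permutation test, two-sided, in 24 tests. The smallest p the design allows is 0.0286 with 4 libraries against 4, 0.0571 with 4 against 3 and 0.1 with 3 against 3. Even with every test at its smallest p, the lowest value after Benjamini-Hochberg adjustment would be 0.0571, so no ratio could pass and the ratios are given as a description (lowest adjusted p 0.274). *Fcgr3* to *Fcgr2b* had the narrowest range: its log2 difference from control lay between -0.19 (females at 6 weeks) and -0.06 (uninduced males). *Fcgr1* to *Fcgr2b* differed by 0.83, 0.49 and 0.21 in males and 0.39, 0.57 and 0.33 in females at 1, 3 and 6 weeks. All libraries lay above all controls in females at 3 weeks (exact permutation p = 0.0286 before adjustment) and in males at 1 week (0.0571). *Fcgr4* to *Fcgr2b* differed by -0.77, -0.60 and -0.95 in males and -0.31, -0.53 and -0.28 in females. All libraries lay below all controls for *Fcgr4* in females at 3 weeks (exact permutation p = 0.0286 before adjustment), in uninduced males and males at 1 week (0.0571 in both) and in males at 6 weeks (0.1). The groups overlapped in the other comparisons. The sign for *Fcgr4* in females at all 3 weeks depends on the pseudocount of 0.5, and without it the differences were 0.43, 0.11 and 0.48.

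**Figure D3:**
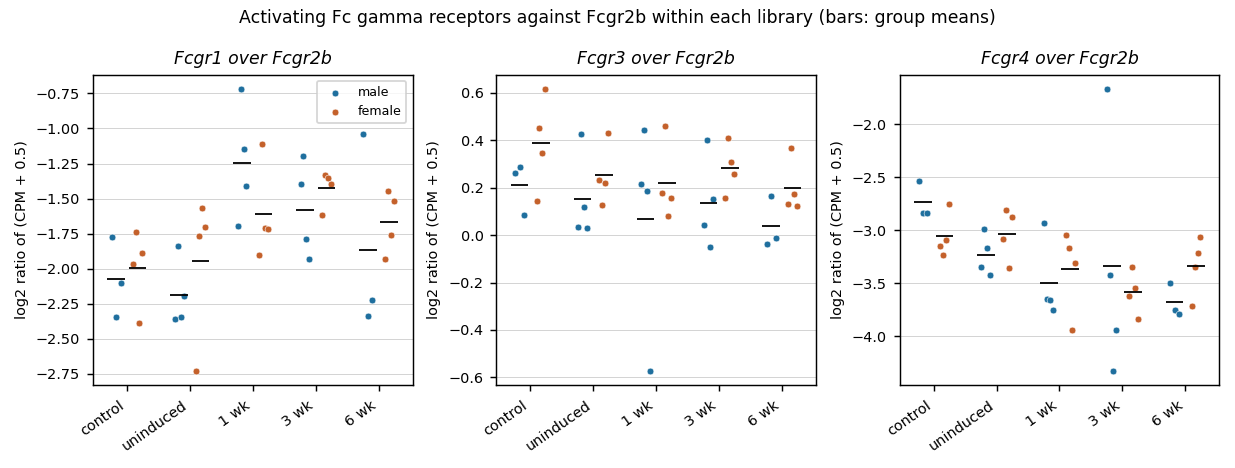
Log2 ratio of each activating receptor to *Fcgr2b* (CPM + 0.5) in each library, with group means as bars. In 6 of the 24 comparisons with control the groups do not overlap (2 above and 4 below control), and *Fcgr3* to *Fcgr2b* spans the narrowest range of group means.

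The summed CPM of 12 macrophage markers moved with these genes: it was 268 to 427 in male controls, 374 to 541 in uninduced males, 967 to 1147 at 1 week, 935 to 1220.4 at 3 weeks and 1001 to 1479 at 6 weeks. In females it was 247 to 310.2, 434 to 592, 1081 to 1152, 1097 to 1392 and 1233 to 1408. None of the 12 was at 0 in all libraries, and 10 rose in males and 11 in females at each week. In uninduced hearts none rose in males and 9 in females, against 0.561% and 2.41% of all genes. At 6 weeks *C1qa* rose by 2.20 and 2.50 on the log2 scale in males and females, *C1qb* by 2.33 and 2.34, *Lyz2* by 2.07 and 2.57, *Cd68* by 1.92 and 1.93, and *Csf1r* by 1.61 and 2.11. The part of macrophage number in the result was not tested.

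As a percentage of that marker sum, *Fcer1g* had group medians between 1.64% and 2.15% in all 10 groups. *Fcgrt* was at 21.6% in male and 23.4% in female controls and at 7.67% and 5.87% at 6 weeks. These are descriptions without a test. *Fcgr1* was at 0.675% and 0.600% in controls, 0.791% and 1.04% at 1 week, and 0.596% and 0.8287% at 6 weeks. *Fcgr3* was at 3.62% and 3.80% in controls, 2.01% and 3.79% at 1 week, and 2.92% and 3.24% at 6 weeks. *Fcgr2b* was at 3.21% and 2.88% in controls, 1.84% and 3.29% at 1 week, and 2.94% and 2.697% at 6 weeks. *Fcgr4* was at 0.358% and 0.214% in controls, 0.0969% and 0.254% at 1 week, and 0.172% and 0.245% at 6 weeks. *Fcrls* was at 1.43% and 1.99%, 2.35% and 2.81% in uninduced hearts, and 1.61% and 1.96% at 6 weeks.

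**Figure D4:**
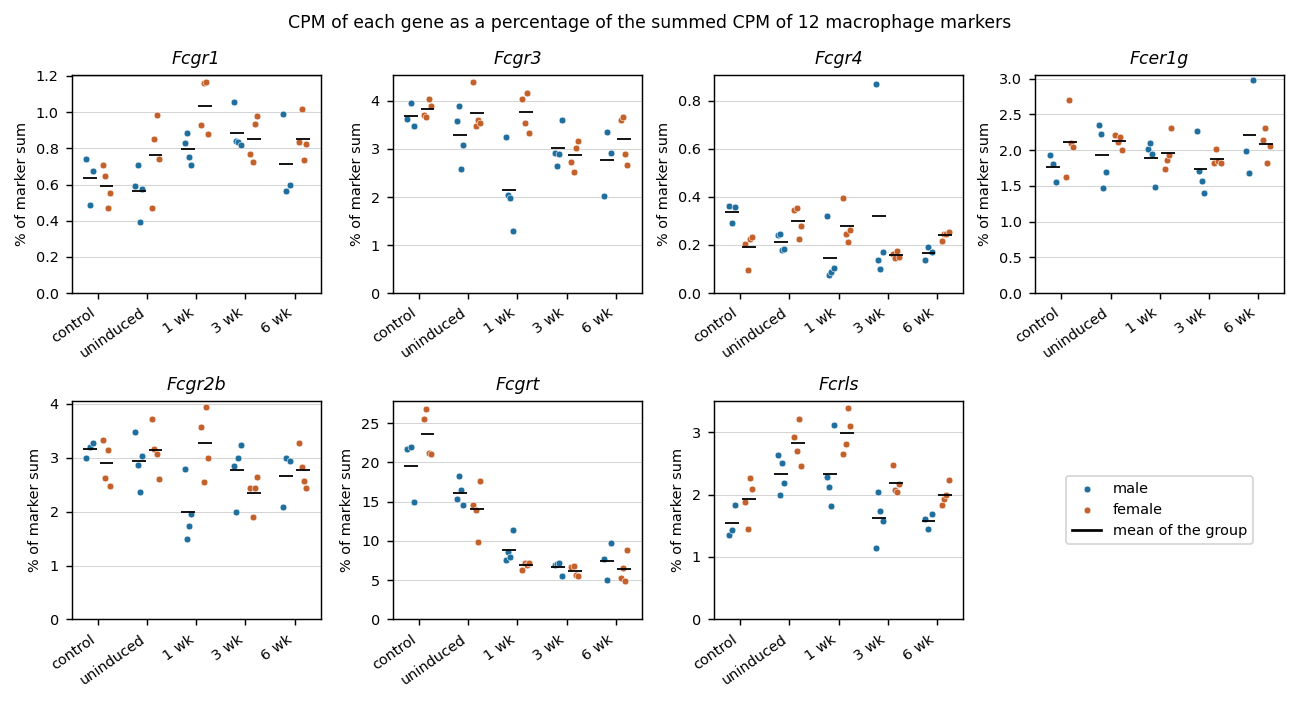
CPM of each gene as a percentage of the summed CPM of 12 macrophage markers in the same library (points; bars are group means). *Fcer1g* keeps much the same percentage in all groups, with medians of 1.64% to 2.15%, whereas *Fcgrt* is highest in controls.

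Other cell types were covered by their own markers, again against control. Monocyte markers rose in 4 of 5 in males and 3 of 4 in females at each week, with *Plac8* (4.02 and 3.71 on the log2 scale at 6 weeks), *Ccr2* (2.93 and 3.75) and *Cx3cr1* (1.84 and 3.14) among them. At 6 weeks 16.2% of all genes in males and 21.7% in females were called higher, and 10.9% and 21.0% were called lower. Dendritic cell markers rose in 3 of 6 in males and 4 of 6 in females (1 fell), among them *Cd209a* (2.80 and 3.31), *Itgax* (2.05 and 2.67) and *Flt3* (1.73 and 2.01). Fibroblast markers rose in 4 of 5 in both, with the collagens *Col3a1* (3.72 and 4.08) and *Col1a1* (2.99 and 3.25) and the proteoglycan *Dcn* (1.57 and 1.59). T and NK cell markers rose in 2 of 5 and 5 of 7, *Cd4* (2.02 and 2.21) and *Nkg7* (0.73 and 0.79) in both sexes, and neutrophil markers in 2 of 4 in both, *Csf3r* (1.36 and 1.35) and *Mmp8* (0.86 and 1.18). Mast cells, which use *Fcer1g* in their IgE receptor, had 1 of 6 markers lower and none higher in males and 5 of 6 higher in females. B and plasma cell markers rose in 1 of 5 in males and in 1 of 6 in females, where 1 fell, near the shares of all genes. The marker that rose in both was *Cd79b* (0.88 and 0.81), whereas its partner in the B cell receptor, *Cd79a*, was at 0.11 and -0.40 (adjusted p = 0.815 and 0.482, limma). Endothelial markers, from cells that express *Fcgrt*, fell in 3 of 7 in males and 5 of 7 in females. *Kdr* fell by 1.18 and 0.80 on the log2 scale, *Tie1* by 0.51 and 0.81 and *Cdh5* by 0.63 and 0.65. Cardiomyocyte markers fell in 1 and 2 of 6, and *Ryr2*, the calcium release channel, fell by 0.90 and 0.63. The part of any of these in the receptor genes was not tested.

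Of 20 genes of the ITAM pathway, 18, 18 and 17 rose in males and 18, 19 and 19 in females at 1, 3 and 6 weeks, with 1 lower (*Vav3*, females at 3 weeks, against 14.5% of all genes called lower there). At 6 weeks their median log2 fold change was 1.04 in males and 1.63 in females. Those that changed most in both sexes were *Fgr*, a Src-family kinase (2.35 and 2.69), *Tyrobp*, another ITAM adaptor (2.43 and 2.23), and *Pld4* (1.92 and 2.25). *Syk*, the kinase that binds the phosphorylated ITAM, rose by 0.87 and 0.96 (limma adjusted p = 4.2e-05 and 3.0e-04). In uninduced hearts none of the 20 passed in males and 9 rose in females, against 0.561% and 2.41% of all genes called higher.

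Of 7 genes of the ITIM pathway, 5 rose and 2 fell in males and 5 rose and 1 fell in females at 6 weeks. *Ptpn6*, a phosphatase of haematopoietic cells, rose by 1.69 and 2.18, and the docking proteins *Dok1* by 1.48 and 1.87 and *Dok3* by 1.45 and 0.99. *Inpp5d*, the phosphatase through which *Fcgr2b* acts, rose by 0.93 and 0.93 (limma adjusted p = 0.00238 and 6.6e-05). The widely expressed *Ptpn11* fell by 0.63 and 0.47.

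Of 13 genes of immunoglobulin constant chains and the joining chain, 6 were listed in males and 7 in females. At 1 week 1 of 6 tested in males and 1 of 7 in females was higher, near the shares of all genes (18.9% and 15.3%). At 3 weeks 1 and 5 were higher (13.2% and 16.8% of all genes), and at 6 weeks 4 and 4 (16.2% and 21.7%). At 6 weeks the κ light chain *Igkc* rose by 2.34 and 3.25 on the log2 scale, the μ heavy chain *Ighm* by 1.59 and 2.56, and *Jchain*, which joins IgM and IgA, by 1.73 and 2.54. None of these named chains is a heavy chain of IgG, the class bound by *Fcgr1*, *Fcgr2b*, *Fcgr3*, *Fcgr4* and *Fcgrt*. The chains called at 6 weeks include others that are not named here. Values of single IgG heavy chains are not given, so whether they rose is not described. The study's text lists *Ighg2c* among the genes upregulated at later time points. No chain passed the limma test between weeks in either sex, so an order in time is not shown. None passed in uninduced hearts.

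Of the other Fc receptors and immunoglobulin-binding proteins, 3 of 14 could be tested in males and 6 in females, and at 6 weeks 1 and 4 rose. *Cd300ld* rose by 0.92 and 1.27. *B2m*, the light chain of the neonatal receptor, was 0.44 higher in males (limma adjusted p = 0.240) and rose by 0.73 in females (adjusted p = 0.00234).

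For each member, the 3 most similar of 16626 genes were taken by Pearson's r of log2(CPM + 0.5) over libraries, ranked by the lower of the male (18 libraries) and female (20 libraries) value. The values describe libraries that share their groups, so differences between groups enter r. *Fcer1g* was closest to *C1qb* (0.981 and 0.987), *Serping1* (0.980 and 0.978) and *Tyrobp* (0.977 and 0.980). *Fcgr1* was closest to *Cpxm1* (0.961 and 0.961), *Bst1* (0.966 and 0.959) and *C1qa* (0.959 and 0.971). *Fcgr2b* and *Fcgr3* were among each other's closest genes (0.945 and 0.987), with *Marchf1* and *Itgb2* beside *Fcgr2b* and *Cd53* and *Laptm5* beside *Fcgr3*. *Fcrls* was closest to *Lgmn* (0.955 and 0.946), *Adamts2* (0.941 and 0.954) and *Pf4* (0.978 and 0.939), and *Fcgrt* to *Tsen34* (0.895 and 0.862), *Tmem59* and *Tmbim6*. Taken on deviations from group means, r was 0.35 and 0.47 for *Fcgr1* with *Cpxm1*. It was 0.81 and 0.71 for *Fcer1g* with *C1qb*, and 0.84 and 0.36 with *Serping1*. For *Fcgr2b* it was 0.83 and 0.39 with *Marchf1* and 0.79 and 0.82 with *Fcgr3*. For *Fcgrt* with *Tsen34* it was 0.86 and 0.88.

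*Fcgr4* differed from the other members in its neighbours: the closest were *Ifi47* (0.874 and 0.931) and *Irgm2* (0.842 and 0.842), both interferon-inducible GTPases, and *H2-D1* (0.842 and 0.815), a class I histocompatibility gene. The male values rest in part on 3-week replicate 1. In that library *Fcgr4* was at 10.6 CPM, *Ifi47* at 15.8 (3.15 to 6.26 in the other male 3-week libraries), *Irgm2* at 164 (32.2 to 43.7) and *H2-D1* at 505 (253 to 299). Without it the male correlations were 0.767, 0.451 and 0.722 over 17 libraries, an alternative chosen after seeing the data. On deviations from group means over all libraries, r in males and females was 0.93 and 0.53 with *Ifi47*. It was 0.85 and 0.19 with *Irgm2* and 0.93 and 0.35 with *H2-D1*.

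**Figure D5:**
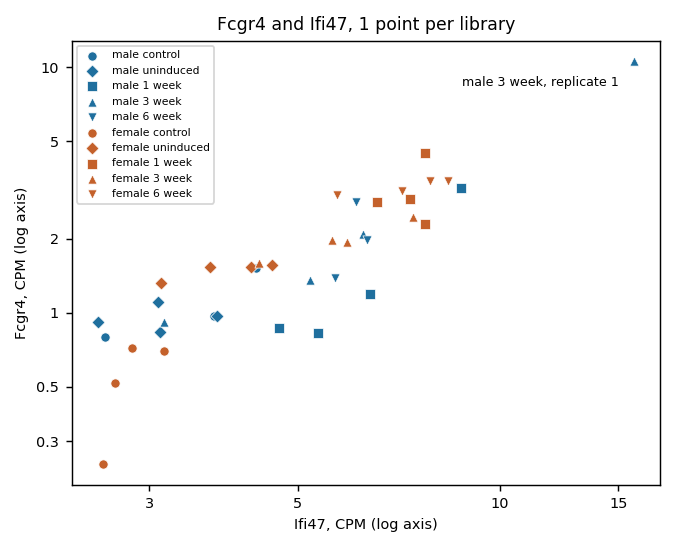
*Fcgr4* against *Ifi47* in CPM (both axes logarithmic), 1 point per library, with colour for sex and symbol for group. Most libraries lie along 1 band, and male 3-week replicate 1 stands at its far end with 15.8 CPM of *Ifi47* and 10.6 CPM of *Fcgr4*.

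*Fcer1g*, *Fcgr1*, *Fcgr2b*, *Fcgr3* and *Fcrls* rose at every week in both sexes. From among them only the promoters of *Fcer1g* and *Fcgr1* are shown. That of *Fcgr4* is shown as the member whose closest genes in expression include interferon-inducible ones. Each promoter runs from 250 bases before the start of the canonical transcript to base 20 of it (GRCm39, GENCODE M39, 5′ to 3′ along the gene). Capitals mark TTCNNNGAA (bound by STAT factors), GAGGAA (the core bound by PU.1, the factor of myeloid cells) and the core of the interferon response element (GAAA, any 2 bases, GAAA), searched on both strands. GAGGAA on the opposite strand reads TTCCTC. Of 21757 promoters of protein-coding genes of the same length, 8.17%, 24.6% and 3.54% held the 3 motifs. None of the matches overlapped another.
Fcgr1 (chr3:96201319-96201588, minus strand): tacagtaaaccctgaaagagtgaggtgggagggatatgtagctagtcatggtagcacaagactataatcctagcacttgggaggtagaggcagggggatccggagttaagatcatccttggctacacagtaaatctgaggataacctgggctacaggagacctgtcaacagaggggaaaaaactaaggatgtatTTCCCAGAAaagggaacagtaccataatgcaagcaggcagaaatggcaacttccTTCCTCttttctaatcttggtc
Fcgr4 (chr1:170846216-170846485, plus strand): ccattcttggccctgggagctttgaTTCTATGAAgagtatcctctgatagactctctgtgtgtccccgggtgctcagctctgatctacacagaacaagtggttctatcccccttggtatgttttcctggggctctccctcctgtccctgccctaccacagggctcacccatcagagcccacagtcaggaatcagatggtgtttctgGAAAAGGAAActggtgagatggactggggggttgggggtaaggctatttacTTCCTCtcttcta
Fcer1g (chr1:171062200-171062469, minus strand): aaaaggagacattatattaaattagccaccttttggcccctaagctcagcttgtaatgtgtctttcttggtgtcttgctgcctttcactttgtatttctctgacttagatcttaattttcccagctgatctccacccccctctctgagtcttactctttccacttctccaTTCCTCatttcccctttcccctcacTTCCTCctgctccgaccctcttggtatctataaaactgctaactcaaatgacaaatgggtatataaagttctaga

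*Fcgr1* held TTCNNNGAA at -56 to -48 and GAGGAA at -2 to 4, counted from the transcript's first base as 1. *Fcgr4* was the only member with the interferon response element core, at -44 to -35, and also held TTCNNNGAA at -225 to -217 and GAGGAA at 8 to 13. *Fcer1g* held GAGGAA at -80 to -75 and at -55 to -50, and *Fcrls* at -67 to -62. The windows of *Fcgr2b*, *Fcgr3* and *Fcgrt* held none of the 3, although *Fcgr2b* and *Fcgr3* also rose at every week in both sexes. These matches describe letters in 1 window and were not tested against binding.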

How the data were processed

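Total polyA RNA from mouse hearts was sequenced by the authors, who aligned reads to GRCm39 with STAR, counted them per gene with featureCounts (named in the submitters' processing notes) and scaled them in edgeR. Per sex, the authors deposited 1 table of signal values, which are CPM on scaled library sizes: 100% of values lie within 0.001 of whole reads, and columns sum to between 817395 and 1196278. The library kit keeps strand, but the strand setting of the counting is not given in the sources used here. *Fcgr2b*, *Fcgr3*, *Fcgr4*, *Fcer1g* and *Fcgrt* each overlap an annotated transcript of another gene.

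Groups came from the labels, as separate mice. Genes reaching 0.5 CPM in 3 or more libraries (16931 for males, 16956 for females) were tested with limma 3.58.1 in R 4.3.3 (mean-variance trend) on log2(CPM + 0.5), all libraries of 1 sex in 1 fit, with Benjamini-Hochberg adjustment over all genes. Because the values are not raw counts, edgeR 4.0.16 and DESeq2 1.42.0 on the recovered reads served as alternatives. Ratios were compared by exact permutation tests. Fits were tested on simulated data. Positions and sequences are from GENCODE M39, a later release than the authors' annotation. All members were described. From each other list the text names the 3 genes with the largest change at 6 weeks among those called in both sexes (fewer where fewer were called), and defining members (*Syk*, *Inpp5d*, *B2m*, *Cd68*, *Csf1r*, *Cd79a*). *Ptpn11* was named outside this rule, and *Vav3* was named after its values were seen. Members and lists were chosen with earlier results of these data known.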

Additional observations from a re-analysis of the deposited data

Results flagged for a closer look

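In 7 of 56 groups of 4 libraries, 1 library stood apart from the other 3 by Dixon's criterion (the gap to the nearest library over the group's range), which chance alone gives in about 1 in 20 groups. *Fcgr4* reached 10.6 CPM in 1 male 3-week library against 0.920 to 2.098 in the others, and 3.21 CPM in 1 male 1-week library against 0.830 to 1.198. In uninduced females its lowest library held 1.32 CPM against 1.54 to 1.57. *Fcgrt* reached 89.0 CPM in 1 uninduced male against 66.7 to 69.7, and 84.8 CPM in 1 male 3-week library against 66.8 to 69.2. *Fcgr1* was at 2.12 CPM in 1 uninduced male against 2.63 to 2.69. *Fcer1g* was at 4.13 CPM in 1 female control against 6.32 to 6.68.

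The 2 male libraries with contradictory labels were in no comparison, and some of their values lay above the highest male control. The library titled control replicate 2 and described as 6 weeks held 10.2 CPM of *Fcgr1*, 47.7 of *Fcgr2b*, 42.9 of *Fcgr3*, 2.75 of *Fcgr4*, 24.3 of *Fcer1g* and 17.7 of *Fcrls*. Its *Fcgrt* was at 59.0 and its *Il11* at 511 CPM. The library titled 6 week replicate 2 and described as control held 72.0 CPM of *Fcgrt*. Its *Fcgr1* was at 1.47, *Fcgr2b* at 8.44, *Fcgr3* at 9.63, *Fcgr4* at 0.637, *Fcer1g* at 6.01, *Fcrls* at 6.29 and *Il11* at 0.597 CPM.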

How the results depend on the processing

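With a minimum log2 fold change of 1 added to the call, 3 members were called in males at 1 week against control. Under that rule 1 was called in uninduced females and 2 in females at 3 weeks against uninduced. The share of all genes under this stricter rule is not given, so these 3 counts have no background to be read against. In uninduced males the count went from 0 to 1 (*Fcrls*) with a pseudocount of 0.1 and under DESeq2, and ranged from 0 to 1 when single libraries were left out. Every other count stayed within 1.5 times its value under the alternatives run. A fit of the 2 compared groups alone lost *Fcgrt* in males at 6 weeks (adjusted p = 0.0792) and *Fcgr1* in uninduced females (0.0829), and gained *Fcgrt* in females at 1 and 3 weeks (0.0216 and 0.0138) and, against uninduced males, *Fcgr2b* at 1 week (0.0260) and *Fcgr4* at 6 weeks (0.0309). The cause was not tested.

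With a pseudocount of 2 the log2 difference of *Fcgr1* to *Fcgr2b* changed sign in males at 6 weeks (-0.13) and in females uninduced (-0.16), at 1 week (-0.034) and at 6 weeks (-0.086), as did *Fcgr4* to *Fcgr2b* in uninduced females (-0.36). *Fcgr4* to *Fcgr2b* also changed sign in females at 1 week (0.21 with a pseudocount of 0.1, 0.43 with none), 3 weeks (0.11 with none) and 6 weeks (0.25 and 0.48). The fit without a pseudocount was chosen after seeing the data.

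Replicate numbers do not pair the libraries: residuals correlated at 0.0132 in males and 0.0255 in females between libraries of the same number, and 4 of 18 and 6 of 20 libraries were closest to their own number. With the replicate number as a block, 6, 5 and 6 members were called in males and 6, 6 and 7 in females at 1, 3 and 6 weeks, and no call of a member changed.

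Depth limits *Fcgr4* most, with 5 to 14 reads in female controls.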
